A study of Homo sapiens with 6 samples.

Results

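The regions described here are 542 stretches of open chromatin that every library called but that ranked lower among the shared regions after NuMA depletion. They were chosen by their own values. The 6 ATAC-seq peak lists were merged at an overlap of 1 bp into 58926 regions, and 17009 of these held a peak in all 6 libraries. In each library the highest fold enrichment in a region was turned into a percentile from 0 to 100 among those 17009. A region was a member when its highest percentile in the NuMA-depleted libraries lay at least 5 points below its lowest in the wild-type libraries. The 542 members made up 3.19% of the shared regions, and 601 regions, or 3.53%, passed the same rule in the opposite direction. Because the rule used the contrast between the groups, the lower ranks, folds, pileups and q-values of the members are given as a description, without a test.

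ATAC-seq reads out open DNA through a transposase, an enzyme that cuts where nucleosomes and other proteins leave DNA exposed and attaches sequencing adapters there. Promoters, enhancers and insulators appear as peaks, whose height follows how often the site was cut in the cell population. NuMA is an abundant nuclear protein that organises spindle poles in mitosis and belongs to the nucleoskeleton between divisions, and linker histone H1, which the series title names beside it, binds nucleosomes and helps pack them together.

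The groups were NuMA-depleted HCT116 cells and wild-type HCT116 cells, with 3 libraries each. HCT116 is an established human colon cancer line, and both groups share that origin. The labels carry the prefix AID for the NuMA-depleted and NC for the wild-type libraries and do not say how or for how long NuMA was depleted, how far its level fell, or whether the libraries of a group came from separate cultures. ATAC-seq of bulk cells averages over the population, so a lower signal in all cells and a closed site in some cells cannot be told apart.

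The lists held between 21783 and 45892 peaks, both extremes in NuMA-depleted libraries (replicates 3 and 2). Read totals are not in the peak lists. The summit pileup of each peak, the number of fragments stacked at its highest point, was recovered from the deposited fold and p-value as a whole number for every peak. Over the shared regions its median was 33, 45 and 22 fragments in NuMA-depleted replicates 1, 2 and 3, and 27, 31 and 27 fragments in wild-type replicates 1, 2 and 3. Relative depth, estimated from the smallest background of each list, was higher in all 3 NuMA-depleted libraries (1.07 to 1.21 times the mean of the 6) than in all 3 wild-type ones (0.762 to 0.975 times). This estimate assumes that the smallest peak width is the caller's fragment length, and NuMA-depleted replicate 3, with the fewest peaks and the lowest median pileup, goes the other way on those measures. Depth and depletion cannot be told apart.

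By their medians, members lay below the middle of the ranking after NuMA depletion and above it in wild-type cells. Their median percentile was 33.5, 34.99 and 31.3 in NuMA-depleted replicates 1, 2 and 3, against 69.9, 70.7 and 71.0 in wild-type replicates 1, 2 and 3. The mean percentile differed by a median of -29.1 points, NuMA-depleted minus wild-type, with values for single members between -59.1 and -8.01 points. The SD of a member over the 3 libraries of a group had a median of 8.50 points in NuMA-depleted against 7.84 points in wild-type libraries, and the rule itself keeps it small beside the difference. Of the 542 members, 104 lay below the 50th percentile in every NuMA-depleted library and above it in every wild-type library. A further 69 lay below it in all 6 libraries and 87 above it. The rule already keeps the groups apart, so these counts follow in part from it. The same counts were not taken over all shared regions or over the regions ranked higher.

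**Figure D1:**
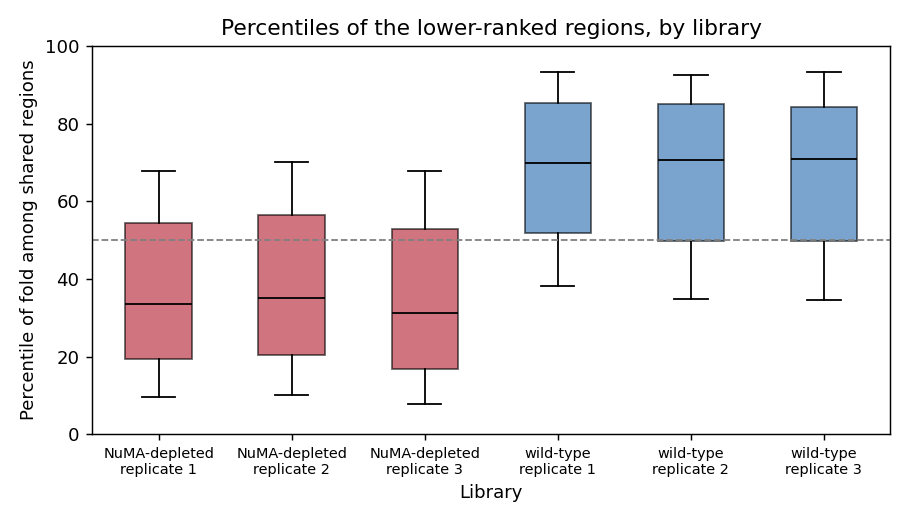
Percentile of fold among the 17009 shared regions (vertical axis, 0 to 100) for the 542 lower-ranked regions in each library. Boxes span the quartiles with the median as a line, whiskers the 10th to 90th percentile of regions, and the dashed line is the middle of the ranking. The 3 NuMA-depleted medians lie between 31.3 and 34.99 and the 3 wild-type medians between 69.9 and 71.0, as the rule requires groups that do not overlap.

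Most gaps were moderate. The median gap between the lowest wild-type and the highest NuMA-depleted percentile was 10.9 points, 301 members had a gap of at least 10 points, 83 of at least 20 points, 29 of at least 30 points and 3 of at least 40 points. In the opposite direction the counts were 327, 97, 32 and 9. At the threshold itself, the 3 members just inside had gaps of 5.003, 5.01 and 5.02 points, at 45552956 to 45553848 on chromosome 14 and at 77348451 to 77349530 and 62431920 to 62433091 on chromosome 11 (positions are on hg19 throughout). The 3 regions just outside, at 40971274 to 40972195 on chromosome 19 and at 249166933 to 249168798 and 77463973 to 77464869 on chromosome 1, had gaps of 4.98, 4.97 and 4.97 points.

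The same count was taken for sets of 3 libraries drawn from both groups. The 3 NuMA-depleted libraries had 542 lower-ranked regions and the 3 wild-type libraries 601. Across the 18 mixed sets the count ran from 321 to 475, with a median of 367. These counts are a description, since the sets share libraries.

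Ranked by fold, the widest gap, 46.0 points, belonged to a region of 609 bp on chromosome 17 at 72450158 to 72450766. Its percentiles were 29.2, 27.1 and 15.8 in NuMA-depleted replicates 1, 2 and 3, against 82.2, 75.2 and 77.0 in wild-type replicates 1, 2 and 3. The fold over local background, each library's own value, was 7.11, 6.91 and 4.86 in the NuMA-depleted libraries, against 9.63, 10.4 and 9.34 in the wild-type ones. Ranked by −log10 q its gap was 36.3 points and by summit pileup 21.8 points, and by both measures the region on chromosome 19 described further on had the widest gap of the 12 (59.0 and 55.3 points). By fold, every NuMA-depleted library ranked it well below the middle of the shared regions, and every wild-type library well above.

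Behind those folds stood 35, 48 and 22 fragments at the summit in the NuMA-depleted libraries, against 45, 51 and 37 in the wild-type libraries. Each number carries its own counting error: the exact 95% Poisson interval ran from 24.4 to 48.7 for the 35 fragments of NuMA-depleted replicate 1 and from 32.8 to 60.2 for the 45 of wild-type replicate 1. Such intervals cover counting error only. Divided by each library's median over the shared regions, the pileup was 1.06, 1.07 and 1 in the NuMA-depleted and 1.67, 1.65 and 1.37 in the wild-type libraries. On this scale the groups did not overlap either, and the region was average among shared regions after depletion and well above average in wild-type cells.

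The second gap, 43.2 points, was on chromosome 10 at 11593859 to 11594754. Percentiles were 30.5, 44.4 and 37.4 in the NuMA-depleted and 91.7, 88.9 and 87.5 in the wild-type libraries. Its summit held 17, 30 and 12 fragments in the NuMA-depleted libraries, against 24, 25 and 25 in the wild-type libraries. This is thin evidence for a single region: 12 fragments in NuMA-depleted replicate 3 have an exact 95% Poisson interval from 6.20 to 21.0. Its pileup was below the library median in all 6 libraries, at 0.515 to 0.667 of it in the NuMA-depleted against 0.806 to 0.926 in the wild-type ones. Its local background was lower still, at 0.478 to 0.645 of the library median in the NuMA-depleted against 0.481 to 0.621 in the wild-type ones.

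On chromosome 16, a narrow region of 434 bp at 27931767 to 27932200 had percentiles of 34.96, 28.9 and 14.4 in the NuMA-depleted and 77.0, 89.1 and 89.4 in the wild-type libraries, a gap of 42.0 points. Chromosome 7 held a pair of the 12 widest. At 115857926 to 115858792 the percentiles were 19.4, 31.9 and 32.9 in the NuMA-depleted and 72.8, 75.6 and 80.6 in the wild-type libraries. At 51030018 to 51031162 they were 16.2, 13.9 and 15.9 in the NuMA-depleted and 87.0, 64.3 and 55.9 in the wild-type libraries. The last of these was tight after depletion (15.3 ± 1.25, SD, n = 3) and spread widely in wild-type cells (69.1 ± 16.1, SD, n = 3).

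Chromosome 10 held 3 of the 12 widest gaps. The region at 106014336 to 106015569 was near the bottom of the ranking after depletion, with percentiles of 8.01, 14.5 and 6.86 in the NuMA-depleted and 53.3, 59.2 and 76.4 in the wild-type libraries. The one at 114091886 to 114093118 had percentiles of 3.33, 21.4 and 28.3 in the NuMA-depleted and 92.0, 69.4 and 66.3 in the wild-type libraries. It had the lowest pileup ratio of all 542 members: relative to each library's median, its mean pileup after depletion was 0.410 times that in wild-type cells, with 16, 35 and 19 fragments in the NuMA-depleted and 57, 47 and 42 in the wild-type libraries.

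The region on chromosome 19 at 10859379 to 10860272 was close to this, at a pileup ratio of 0.437. It had 26, 30 and 12 fragments in the NuMA-depleted libraries, against 40, 50 and 40 in the wild-type libraries, and percentiles of 12.999, 13.2 and 2.34 in the NuMA-depleted and 56.3, 64.7 and 49.9 in the wild-type libraries. In both of these regions the raw fragment number was lower in every NuMA-depleted library than in every wild-type library. The local background around both was lower as well: relative to the library median it was 0.840 to 1.04 in the NuMA-depleted against 1.504 to 1.66 in the wild-type libraries on chromosome 10, and 0.928 to 1.15 against 1.56 to 1.70 on chromosome 19.

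The others among the 12 began at 129308092 on chromosome 4, at 150320750 on chromosome 3, at 19426459 on chromosome 12 and at 107349222 on chromosome 6. Their gaps were 39.0, 37.8, 37.5 and 36.4 points. The 12 lay on 9 chromosomes and were 434 to 1498 bp wide, and 11 of them had exactly 1 peak in every library. Percentiles in single libraries ran from 2.34 to 49.9 in the NuMA-depleted and from 49.9 to 95.4 in the wild-type libraries. In all 12 the pileup relative to the library median did not overlap between the groups, with ratios of depleted over wild-type between 0.410 and 0.757. It was lower without overlap in 66.1% of all members and in 7.39% of all shared regions. Pileup is a component of the fold that chose the 12, so this follows largely from the choice. The rule asks for a peak in all 6 libraries, and the weakest −log10 q of the 12 in a NuMA-depleted library was 3.25.

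**Figure D2:**
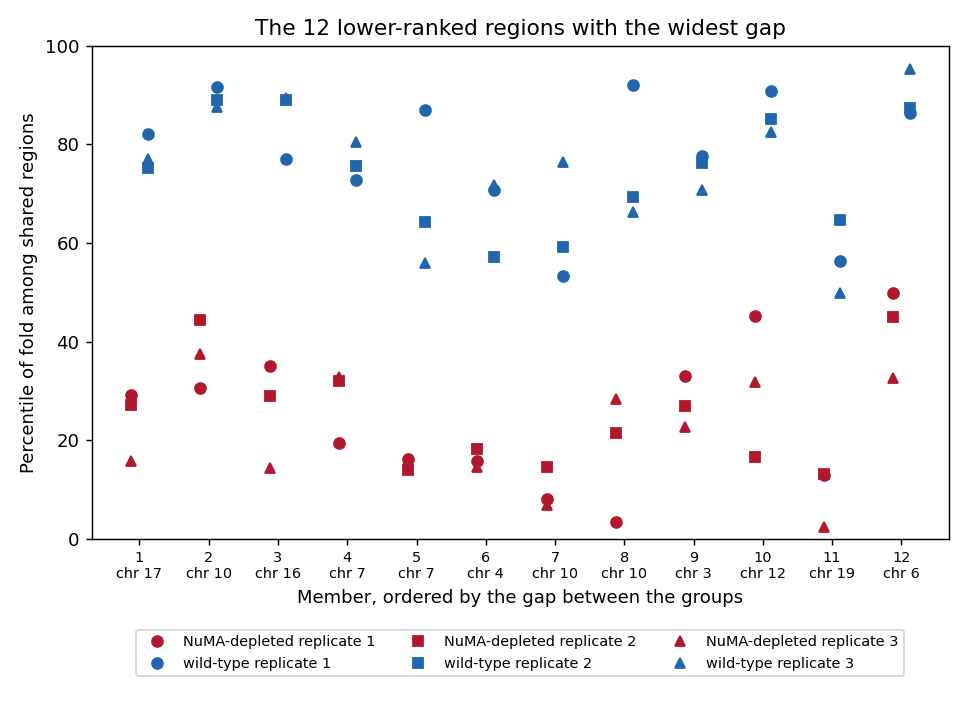
Percentile of fold among shared regions (vertical axis, 0 to 100) of the 12 members with the widest gap, ordered by that gap from left to right, with the chromosome under each. Each symbol is 1 library, NuMA-depleted left of wild-type for each region. Percentiles run from 2.34 to 49.9 in the NuMA-depleted and from 49.9 to 95.4 in the wild-type libraries.

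Few of the highest-ranked shared regions were members. Only 4 members (0.738%) had a mean percentile above 90 over the 6 libraries, against 695 of all shared regions (4.09%), and 4 (0.738%) had one below 10, against 901 (5.30%). A region at either end of the ranking has little room for a gap, so this follows in part from the rule. The member with the highest mean percentile, 92.8, was on chromosome 20 at 52883851 to 52884587. Its percentiles were 85.3, 80.4 and 92.8 in the NuMA-depleted and 99.2, 99.9 and 99.4 in the wild-type libraries, and its folds were 10.5, 9.87 and 9.32 in the NuMA-depleted and 13.02, 16.2 and 13.2 in the wild-type ones. In wild-type cells it stood at the very top of the ranking, and in NuMA-depleted cells it was still high but no longer there.

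The next was on chromosome 2 at 43863938 to 43864947, where the fold averaged 9.75 ± 0.955 in NuMA-depleted against 12.8 ± 0.252 in wild-type libraries (SD, n = 3 each). The region on chromosome 14 at 45552956 to 45553848 was the third strongest member, at a mean percentile of 91.0, and also the one closest to the threshold. On chromosome 7 at 2883942 to 2884447 the fold averaged 9.79 ± 1.70 in NuMA-depleted against 12.4 ± 1.55 in wild-type libraries (SD, n = 3 each). On chromosome 6 at 100015816 to 100017056 the percentiles averaged 84.0 ± 2.56 in NuMA-depleted against 93.5 ± 1.64 in wild-type libraries (SD, n = 3 each). On chromosome 9 at 26956001 to 26956764 they averaged 81.6 ± 5.13 in NuMA-depleted against 95.1 ± 2.01 in wild-type libraries (SD, n = 3 each), but ranked by pileup in place of fold this region had a gap of -10.5 points. By pileup 4 of the 6 strongest fell under the rule's 5 points, with gaps of 3.34 points on chromosome 20, 3.59 points on chromosome 2 and 4.73 points on chromosome 14 besides. By −log10 q 3 of the 6 did, on chromosomes 7, 9 and 14. By fold, all 6 of these regions were high in both groups, and none of them lay below the middle of the ranking in any library.

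In the 2 widest members the local background averaged higher after depletion. The widest, 2309 bp on chromosome 5 at 95157850 to 95160158, had 30, 45 and 20 fragments at its summit in the NuMA-depleted against 24, 31 and 26 in the wild-type libraries. Relative to the library medians its pileup was 0.988 times as high after depletion, while its percentile averaged 10.2 ± 2.94 in NuMA-depleted against 27.0 ± 4.58 in wild-type libraries (SD, n = 3 each). Its relative local background was 1.57, 1.51 and 1.39 in the NuMA-depleted against 1.13, 1.24 and 1.26 in the wild-type libraries, so its lower rank came with a higher background and not with a lower summit. The next, 2237 bp on chromosome 8 at 62671937 to 62674173, had percentiles of 25.9, 21.5 and 34.8 in the NuMA-depleted and 82.0, 74.8 and 63.1 in the wild-type libraries, with a pileup ratio of 0.849. Its relative local background was 1.47, 1.82 and 1.38 in the NuMA-depleted against 1.11, 1.36 and 1.44 in the wild-type libraries, where the groups overlapped. Neither was a member when ranked by pileup, with gaps of -13.3 points for the widest and -0.135 points for the next.

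Over all members, relative summit pileup was lower after depletion, while relative local background was nearly the same in both groups. In raw fragments the median pileup of the members was 27, 37 and 18 in NuMA-depleted replicates 1, 2 and 3. It was 30, 32 and 29 in wild-type replicates 1, 2 and 3, so on that scale the groups overlapped. A fold is the pileup over the caller's estimate of local background, so either could lower a rank. Relative to each library's median over the shared regions, the median pileup of the members was 0.818, 0.822 and 0.818 in the NuMA-depleted and 1.11, 1.03 and 1.07 in the wild-type libraries. Their median local background was 0.895, 0.887 and 0.883 in the NuMA-depleted and 0.910, 0.898 and 0.895 in the wild-type libraries. In both groups the recovered background of the members was thus somewhat below that of the median shared region. This background is itself a component of the fold that chose the members. At the summit the members held fewer fragments than the median shared region after NuMA depletion but not in wild-type cells.

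Counted by region, the mean relative pileup was lower after depletion in 538 of 542 members, with a median ratio of 0.771. In 358 members (66.1%) all 3 NuMA-depleted libraries lay below all 3 wild-type libraries in relative pileup, and in 1 member (0.185%) above. Over all shared regions the corresponding shares were 7.39% below and 9.05% above. For the local background, 72 members (13.3%) lay below in all libraries and 46 (8.49%) above, against 11.7% and 12.7% of all shared regions, with a median ratio of 0.978. Pileup is a component of the fold that chose the members, so the members' counts and shares for pileup follow largely from the rule and support nothing by themselves.

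**Figure D3:**
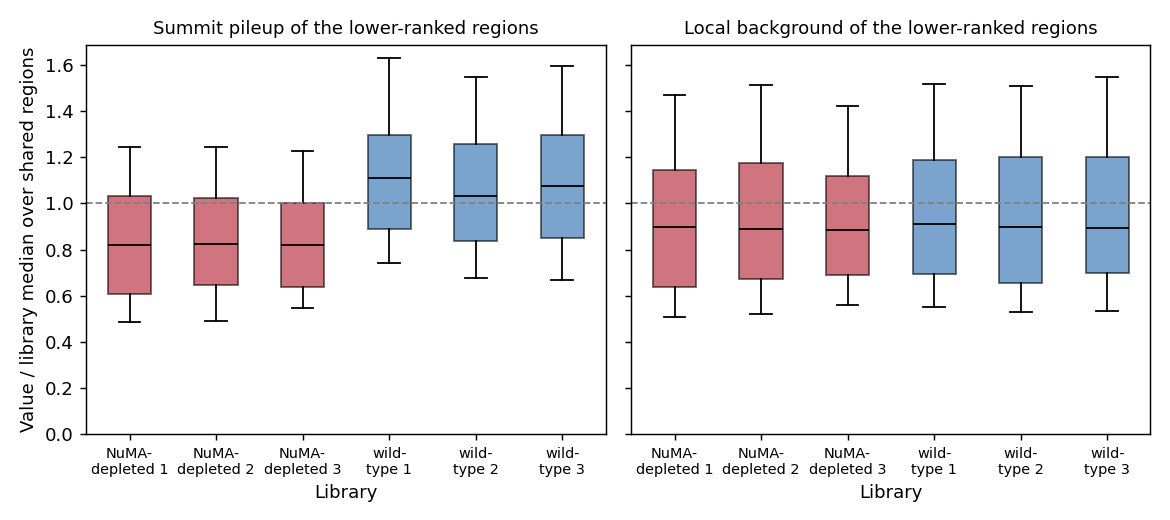
Summit pileup (left) and local background (right) of the 542 lower-ranked regions in each library, each divided by that library's median over the 17009 shared regions (vertical axis, no unit). Boxes span the quartiles with the median as a line, whiskers the 10th to 90th percentile of regions, and the dashed line is the value of the median shared region. Median pileup is 0.818 to 0.822 in the NuMA-depleted and 1.03 to 1.11 in the wild-type libraries, while median background is 0.883 to 0.895 in the NuMA-depleted and 0.895 to 0.910 in the wild-type libraries.

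The 601 regions ranked higher were not a mirror image in these values. Their median relative background was 0.990, 0.977 and 0.996 in the NuMA-depleted and 0.877, 0.846 and 0.853 in the wild-type libraries, and 185 of them (30.8%) had a higher background in all NuMA-depleted than in all wild-type libraries. Among the lower-ranked members 72 of 542 (13.3%) showed the matching shift to a lower background. Over all shared regions 12.7% had a higher and 11.7% a lower background in all NuMA-depleted libraries. The members' share was thus near that of any shared region. Whether the sets differ in this was not tested, since both were chosen on the fold that contains it.

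Called peaks in the members were slightly narrower than average and had weaker statistics after depletion. The median −log10 q of the members was 14.9, 20.1 and 7.79 in the NuMA-depleted and 18.7, 22.5 and 18.4 in the wild-type libraries, where all shared regions had medians of 19.4, 25.1 and 10.6 in the NuMA-depleted and 15.4, 19.2 and 15.5 in the wild-type libraries. The median peak width relative to the library median was 0.941, 0.966 and 0.894 in the NuMA-depleted and 0.979, 0.971 and 0.958 in the wild-type libraries. These values move with the fold and with depth, and their part in the result was not tested.

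In features that the rule did not use, the members were close to other shared regions. Their merged width had a median of 900 bp, against 881 bp for the regions ranked higher and 914 bp for all shared regions. Exactly 1 peak in every library was found in 508 members (93.7%), against 92.6% of all shared regions. The nearest other region of any kind was a median of 11.1 kb away, against 10.3 kb, and 22.1% of members had one within 5 kb, against 23.2%. The 6 summits of a member spanned a median of 144 bp, against 187 bp for the regions ranked higher and 164 bp for all shared regions. The mean summits of the groups were a median of 36.7 bp apart in members, against 38.3 bp for all shared regions. A mean over the 3 libraries of a group hides part of the spread between single summits.

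Members were found on all 23 chromosomes, in uneven shares. They made up 4.48% of the shared regions on chromosome 18 (13 of 290), 4.35% on chromosome 13 (16 of 368) and 4.14% on chromosome 4 (28 of 676). The smallest shares were 1.43% on chromosome 17 (13 of 911), 1.55% on chromosome 21 (3 of 194) and 1.87% on chromosome 19 (15 of 804). Regions ranked higher made up 3.84% of the shared regions on chromosome 17, 5.15% on chromosome 21, 3.61% on chromosome 19 and 2.76% on chromosome 18. Counts per chromosome are small, regions of one library are not replicates, and no test was made of these shares.

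**Figure D4:**
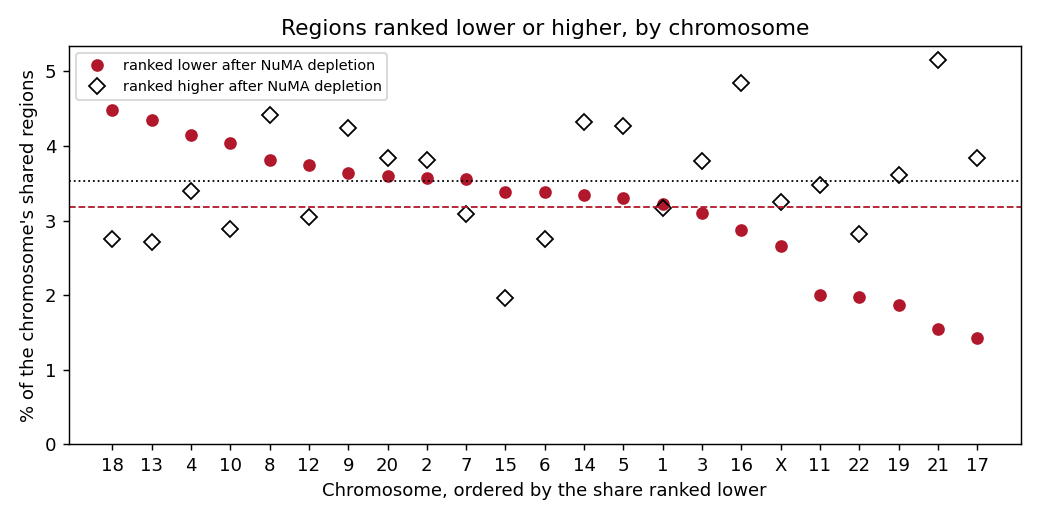
Share of each chromosome's shared regions that ranked lower (filled circles) or higher (open diamonds) after NuMA depletion, in percent. Chromosomes are ordered by the share ranked lower, and the dashed and dotted lines give the shares over the genome, 3.19% lower and 3.53% higher. The share ranked lower runs from 4.48% on chromosome 18 down to 1.43% on chromosome 17.

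Whether the remaining regions of a chromosome moved in the same direction was compared over libraries for 3 groups of chromosomes. The groups were picked with the shares known, and the regions of both sets were left out. Chromosomes 17 and 21, which had the smallest shares, were not among them. On chromosomes 4, 13 and 18 together, 1236 such regions had a mean percentile of 51.8, 52.4 and 54.2 in the NuMA-depleted and 55.4, 53.3 and 53.9 in the wild-type libraries, a difference of -1.41 points (exact permutation test, two-sided, p = 0.3, adjusted 0.4). On chromosomes 19 and 22, 1097 regions had 45.6, 45.3 and 42.2 in the NuMA-depleted and 39.9, 42.6 and 45.0 in the wild-type libraries, a difference of 1.87 points (exact p = 0.4, adjusted 0.4). On chromosome 16, 610 regions averaged 46.7 ± 0.549 in NuMA-depleted against 45.7 ± 1.10 in wild-type libraries (SD, n = 3 each, exact p = 0.3, adjusted 0.4). The groups overlapped in each of these 3 comparisons, over which the p-values were adjusted by Benjamini-Hochberg. With 3 libraries against 3 the exact test cannot go below p = 0.10. Chromosomes 4, 13 and 18 held 57 members (4.27% of their 1334 shared regions) and chromosomes 19 and 22 held 22 (1.90% of 1158). Chromosome 16 held 19 (2.87% of 661), where the share over all shared regions was 3.19%.

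Most members had no other member close by, and the same was true of the regions ranked higher. The nearest other member was a median of 1518 kb away, 18 of the 542 (3.32%) had another within 50 kb and 2 within 10 kb. Among the 601 regions ranked higher the median was 868 kb, and 32 (5.32%) had another within 50 kb. No baseline for a set of this size was taken, so the spacing is a description. Of 474 bins of 1 Mb that held any member, 417 held 1, 50 held 2 and 7 held 3 or more. The most were in the bin from 57 to 58 Mb on chromosome 3, where 5 of 14 shared regions were members and 0 ranked higher. These 5 lay at 57204082 to 57204979, 57261229 to 57262087, 57436015 to 57437122, 57678192 to 57679096 and 57789397 to 57790037. Their gaps were 12.3, 35.9, 30.1, 18.6 and 16.8 points. For the region at 57261229 the percentiles were 34.9, 43.8 and 46.1 in the NuMA-depleted and 88.9, 90.1 and 81.9 in the wild-type libraries. Bins from 27 to 28 Mb on chromosome 1 and from 18 to 19 Mb on chromosome 20 held 4 members each, of 24 and 11 shared regions, and again 0 ranked higher. These bins were picked after their counts were seen.

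Whether the lower ranks extended along the chromosome was read from neighbouring regions outside the set. The nearest shared region that was no member, within 50 kb of a member, was taken for each, which gave 307 neighbours. Their mean percentile was 48.2, 49.0 and 48.4 in the NuMA-depleted and 48.4, 48.5 and 48.5 in the wild-type libraries, a difference of 0.0793 points (exact permutation test, two-sided, p = 0.9). Without NuMA-depleted replicate 2 the difference was -0.159 points. Removing the members tilts what is left: all 16467 shared regions that were no member averaged 50.4 in NuMA-depleted against 49.4 in wild-type libraries. With the regions ranked higher left out as well, a choice made after seeing the data, 302 neighbours averaged 48.0 ± 0.355 in NuMA-depleted against 48.9 ± 0.0488 in wild-type libraries (SD, n = 3 each). The groups then did not overlap, with a difference of -0.949 points (exact p = 0.1, the smallest this design allows), while all 15866 regions in neither set differed by -0.109 points. The median of -29.1 points in the members is no yardstick for this difference, since the rule chose them on that contrast. At 10 kb and 200 kb the groups overlapped.

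No single region was called in a test across all shared regions on the percentiles. A limma fit of the percentiles over the 17009 regions called 0 lower (0%) and 0 higher at a Benjamini-Hochberg adjusted p of 0.05, with a smallest adjusted p of 0.643, and 600 (3.53%) were lower at an unadjusted p under 0.05. With log2 fold after quantile normalization it called 0 lower and 1 higher. Percentiles of different libraries correlated over the shared regions at 0.622 to 0.730 within groups and 0.611 to 0.696 between groups, as a description over regions that share libraries and depth. Every pair with NuMA-depleted replicate 3 lay between 0.611 and 0.648. The remaining pairs ran from 0.698 to 0.730 within groups and from 0.675 to 0.696 between groups.

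The choice of ranking measure decided which regions counted as lower. Ranked by −log10 q in place of fold, 619 regions passed, and 374 of the members (69.0% of the members and 60.4% of that list) were among them. Ranked by summit pileup, 621 passed, with 251 of the members (46.3% of the members and 40.4% of that list). By all 3 measures 250 members passed. The 12 members with the widest gap by fold also passed by both other measures, but the size and order of their gaps depended on the measure. By pileup the 12 gaps ran from 8.91 to 55.3 points, and 7 of them were narrower by over 1.5 times. By −log10 q they ran from 27.3 to 59.0 points.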

How the data were processed

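The 6 ATAC-seq libraries were grouped by genotype label. Trim Galore, Bowtie2 2.4.1, Picard and the build hg19 are named, per the submitters' processing notes. The peak caller's version and settings, read filters and any shift for the transposase were not given in the sources used here. Each list belongs to 1 sample, and the peak names in the files hold a macs2 folder. For each peak the authors deposited a fold enrichment (a linear ratio over local background), a −log10 p and −log10 q, a summit offset and a score, which equals 10 times the −log10 q in whole numbers and was not used. Regions were ranked by the deposited folds within a library only, and a mean ± SD of folds or percentiles describes the 3 lists of a group. No peak had a −log10 q under 2.00.

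Peaks were merged at 1 bp, and percentiles used the mean rank for ties. Pileup n and background b were recovered from fold = (n + 1)/(b + 1) and a Poisson tail for p, with a tolerance of 0.01 on −log10 p. Relative depth is the smallest background divided by the smallest peak width, which assumes that this width is the caller's fragment length; depth in reads is unknown. limma 3.58.1 (R 4.3.3, mean trend) was also run on simulated data, whose outcome is not given here. That it called 0 regions lower therefore does not show that none changed. Other steps used Python 3.11.15, numpy 2.4.6, pandas 2.3.3 and scipy 1.17.1. Regions named were the 12 widest gaps, the 6 highest mean percentiles, the 2 widest and the 3 on each side of the threshold, with the fullest bins named after their counts were seen. Members, lists and tests were chosen with earlier results of these data known. No genome or annotation of hg19 was used here, so no gene, motif or sequence is given for a region, and the gene lists and motifs that had been planned were not counted. Replicate numbers in the labels did not pair the samples, and since nothing says that replicates were separate cultures, p-values cover the spread between libraries alone, which may be technical.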

Additional observations from a re-analysis of the deposited data

How the results depend on the processing

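The number of lower-ranked regions, 542, was 1056 with a margin of 0 points and 301 with a margin of 10 points, and 1080 to 1168 when any one library was dropped, which loosens the rule by construction and kept all 542. Its other 9 alternatives gave 387 (equal numbers of peaks) to 716 (a margin of 3 points). With equal numbers of peaks only 11798 regions were shared, and the 387 were 3.28% of them, against 3.19% in the main setting. limma called 0 regions lower under all alternatives, including the replicate block (0 lower, smallest adjusted p 0.709, 553 lower at an unadjusted p under 0.05). The neighbours' difference, 0.0793 points, lay between -0.159 and 0.246 when any one library was dropped, so NuMA-depleted replicate 2 decided its sign. With regions ranked higher left out too it was -0.949, and then -1.32 within 10 kb and -0.830 within 200 kb (exact p = 0.3 each), a setting chosen after seeing the data. The replicate block left its value at 0.0793 (exact p = 1, where 3 pairs cannot go below 0.25); deviations of same-numbered libraries correlated at -0.0266, -0.0186 and -0.0194. Of 218 recomputed gaps of 20 named members, 182 moved by less than 1 SD, 15 became narrower and 17 wider by more, and 4 turned negative. In 7 members, 10 of the 218 were under the rule's 5 points. Dropping a library cannot narrow a gap, and using the fold of the peak with the highest −log10 p left each gap unchanged. The 182 therefore say little about how stable the gaps are. By pileup the negative ones were -10.5 on chromosome 9 at 26956001, -13.3 on chromosome 5 at 95157850 and -0.135 on chromosome 8 at 62671937, and by −log10 q -0.632 on chromosome 5 at 95157850. The cause was not tested. With 11 to 57 fragments at the summits of the 12 widest gaps, counting error limits what any one region shows.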
